A study of Sorghum bicolor with 16 samples.

Results

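Genes with several listed peaks of N6-methyladenosine (m6A), a methyl mark on adenosines inside messenger RNA, were described in roots of sweet sorghum (Sorghum bicolor). Genes were chosen by the number of peaks listed for them: those with 3 or more rows in a list of m6A peaks were taken, with every row of such a gene. That number and the peak heights of the same lists are therefore a description, with no test. Over the 4 lists, 3204 of 38503 rows met the rule, and they came from 552 of the 11065 genes that had a peak in any list. The M-81E salt list gave 815 rows of 247 genes, and the M-81E control list gave 1033 rows of 313 genes. The Roma salt list gave 1096 rows of 326 genes, and the Roma control list gave 260 rows of 79 genes.

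The roots came from seedlings with 3 leaves, of the strain M-81E, labelled salt-tolerant, and the strain Roma, labelled salt-sensitive. Each strain was kept under salt stress or as a control. Neither the salt dose nor the length of the treatment is stated in the labels. All groups were poly(A) RNA, fragmented and sequenced with enrichment by an m6A antibody (IP) and without it (input), in 2 samples for each of the 8 combinations, 16 in all. Peaks were deposited as 1 list per strain and treatment, so no list has a replicate, and shares carry exact binomial (Clopper-Pearson) 95% intervals that cover counting error only.

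In plants, as in animals, m6A is written on nuclear pre-mRNA by a methyltransferase complex and is read by proteins of the YTH family, with known effects on splicing, stability and the choice of the 3' end of transcripts. The mark lies for the most part near stop codons and in 3' untranslated regions (3' UTRs), and more rarely near the start of transcripts or inside coding exons. Each further peak on a transcript is a further stretch at which the antibody enriched its fragments.

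Expression was available as FPKM, a count of fragments scaled by transcript length and library size, in 8 libraries, 2 for each strain and treatment. The labels place the names of these 8 columns in the descriptions of the IP samples, which ties the FPKM values to the enriched libraries, while the names of the peak lists use the same stems for what the IP was set against. Differences in FPKM therefore cannot be told apart from differences in enrichment. Summed FPKM was 326000 to 377100 per library, and 14477 to 16006 genes reached an FPKM of 1. Read totals were not used here, and the depth behind the peak lists is unknown. In a principal component analysis M-81E control replicate 2 stood apart on the second component, at -94.57 against -9.058 to 57.65 for the other 7 libraries. Of the genes annotated to root structures, 112 summed to an FPKM of 2255 to 3708 per library, whereas 106 genes of photosynthesis summed to 195.2 to 315.6.

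A row of a list is not always a place of its own. A gene with several annotated transcript models could have the same region listed against more than 1 model, and rows of 1 gene were therefore also joined into separate peaks wherever their spans shared 1 bp or more. Rows that overlapped another row of their gene were 181 of 815 in the M-81E salt list and 195 of 1033 in the M-81E control list. They were 257 of 1096 in the Roma salt list and 82 of 260 in the Roma control list. Only 6, 8, 14 and 4 rows shared both start and end with another row, so most overlapping rows differed in extent. After joining, 186 of 247 genes (75.3%, 95% interval 69.4 to 80.6%) still had 3 or more separate peaks in the M-81E salt list, and 257 of 313 (82.1%, 77.4 to 86.2%) in the M-81E control list. The same held for 253 of 326 genes (77.6%, 72.7 to 82.0%) in the Roma salt list and for 50 of 79 (63.3%, 51.7 to 73.9%) in the Roma control list. The remaining genes had 2 separate peaks, or only 1 in 9, 7, 5 and 3 genes in the order of the lists just given.

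**Figure D1:**
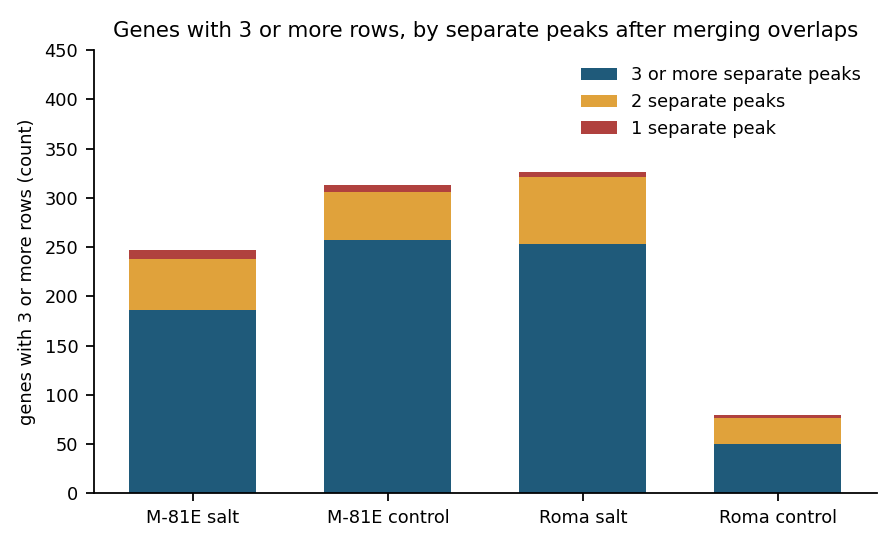
Genes with 3 or more rows in each peak list (bars, count), split by the number of separate peaks left after overlapping rows of a gene were joined. The part with 3 or more separate peaks holds 186 of 247 genes in M-81E salt, 257 of 313 in M-81E control, 253 of 326 in Roma salt and 50 of 79 in Roma control.

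Several genes with the most rows owed them to overlapping rows. SORBI_3004G116000 had the highest number of rows of any gene, 8 in the Roma salt list, and these formed 2 separate peaks. It had 4 rows in each other list, and these formed 1 separate peak, in the 3' UTR. SORBI_3002G245800, annotated to ubiquitin transfer, zinc binding and the response to water deprivation, had 6 rows in the M-81E control, Roma salt and Roma control lists, and in each they formed 2 separate peaks. Of the 15 genes with the most rows among those in all 4 lists, 7 had 3 or more separate peaks in every list. Most genes lay at the lower limit of the rule: exactly 3 rows were found for 187 genes in M-81E salt, 239 in M-81E control, 242 in Roma salt and 62 in Roma control.

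The genes just inside the limit can be set beside those just outside it. Genes with exactly 3 rows had a median highest fold enrichment (IP relative to input within a peak, as the authors computed it) of 18.9 in M-81E salt, 24.4 in M-81E control, 37.2 in Roma salt and 33.8 in Roma control. Genes with exactly 2 rows had medians of 17.9, 19.7, 31.6 and 24.0 in the same lists. The highest of 3 values tends to exceed the highest of 2, so this order is in part set by the number of rows. Over single rows the order was the other way. Rows of genes with 3 or more had a median fold of 7.56 in M-81E salt, against 13.4 for other rows. The medians were 7.87 and 13.3 in M-81E control, 10.65 and 22.45 in Roma salt, and 10.1 and 18.3 in Roma control.

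By place, the rows of these genes were spread more evenly along the transcript than those of other genes. In the 3' UTR lay 47.5% of their rows in M-81E salt (95% interval 44.0 to 51.0%), against 80.5% of rows of genes with 1 or 2 rows. The shares in M-81E control were 40.9% and 74.5%, in Roma salt 47.0% and 80.1%, and in Roma control 49.2% and 81.9%. Exons outside the UTRs held 38.3, 41.2, 35.95 and 35.8% of the rows of these genes in the 4 lists, against 12.7, 15.4, 12.2 and 11.7% of other rows. For the 5' UTR the shares were 14.2, 17.9, 17.1 and 15%, against 6.81, 10.1, 7.76 and 6.42%. A gene can only meet the rule with peaks in several places or several rows in 1 place, so these shares are in part set by the rule. Once overlapping rows were joined, exons held the largest share of the peaks of genes with 3 or more: 46.4% in M-81E salt, 47.9% in M-81E control, 44.2% in Roma salt and 50.9% in Roma control.

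**Figure D2:**
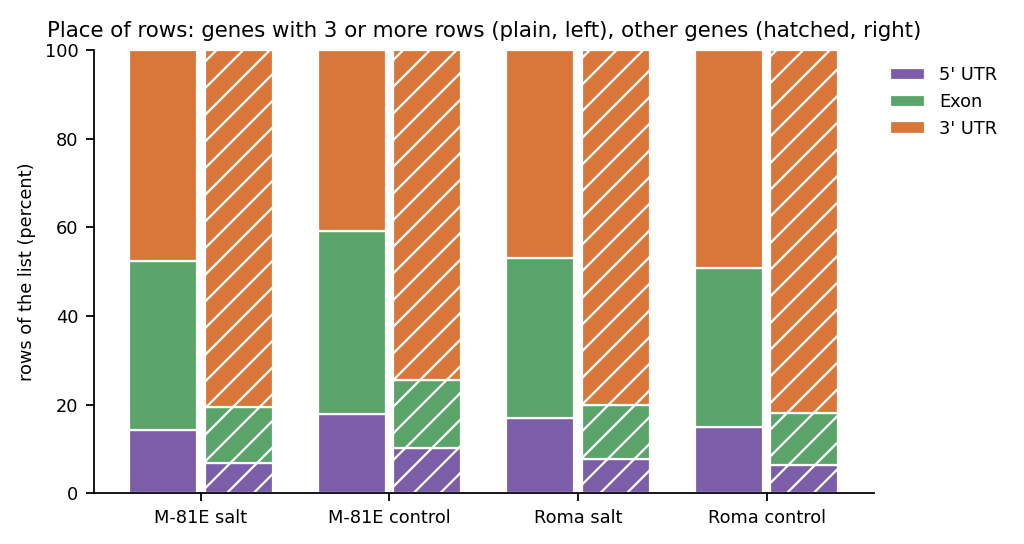
Share of rows (percent, stacked) annotated to the 5' UTR, to exons outside the UTRs and to the 3' UTR, for genes with 3 or more rows (plain, left of each pair) and for all other genes with a peak (hatched, right). The 3' UTR share is between 40.9 and 49.2% in the plain bars and between 74.5 and 81.9% in the hatched bars.

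The most common layouts were a set of exon and 3' UTR peaks, or peaks in all 3 places. In M-81E salt 99 of the 186 genes with 3 or more separate peaks had exon and 3' UTR peaks only and 59 had peaks in the 5' UTR, exons and 3' UTR. In M-81E control each layout was found in 105 of 257 genes. The counts were 121 and 75 of 253 genes in Roma salt, and 29 and 11 of 50 in Roma control. All peaks lay in exons in 6, 14, 10 and 1 genes, and all in the 3' UTR in 3, 5, 13 and 1 genes. Of the exon peaks, 21.4, 27.6, 25.2 and 20.7% lay in the last exon and 21.0, 22.5, 19.7 and 24.4% in the first of several. A peak made of more than 1 exon block crossed a splice junction. Such were 22.9, 24.2, 21.8 and 22.4% of the peaks of genes with 3 or more separate peaks. Among separate peaks of the other genes the shares were 10.7, 11.4, 10.8 and 10.3%. These sets of peaks also differ in their place on the transcript, and shares within a place were not counted.

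Within a gene the peaks were far from equal in height. The weakest lay between the first and the last in 107 of 186 genes in M-81E salt, 153 of 257 in M-81E control, 141 of 253 in Roma salt and 24 of 50 in Roma control. These are 57.5, 59.5, 55.7 and 48% of genes, while 38.6, 37.6, 38.1 and 37.9% of all their peaks lay between the ends. The fold enrichment of the peak nearest the 3' end had a median of 12.4 in M-81E salt, 12.1 in M-81E control, 22.1 in Roma salt and 18.4 in Roma control. At the 5' end the medians were 6.55, 11.2, 9.70 and 7.38, and for the peaks between they were 4.07, 4.12, 5.22 and 5.07. Fold enrichments of different lists were not compared, since the lists were made separately. The strongest peak of a gene exceeded its weakest by a median of 6.21, 7.62, 10.1 and 11.0 times.

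**Figure D3:**
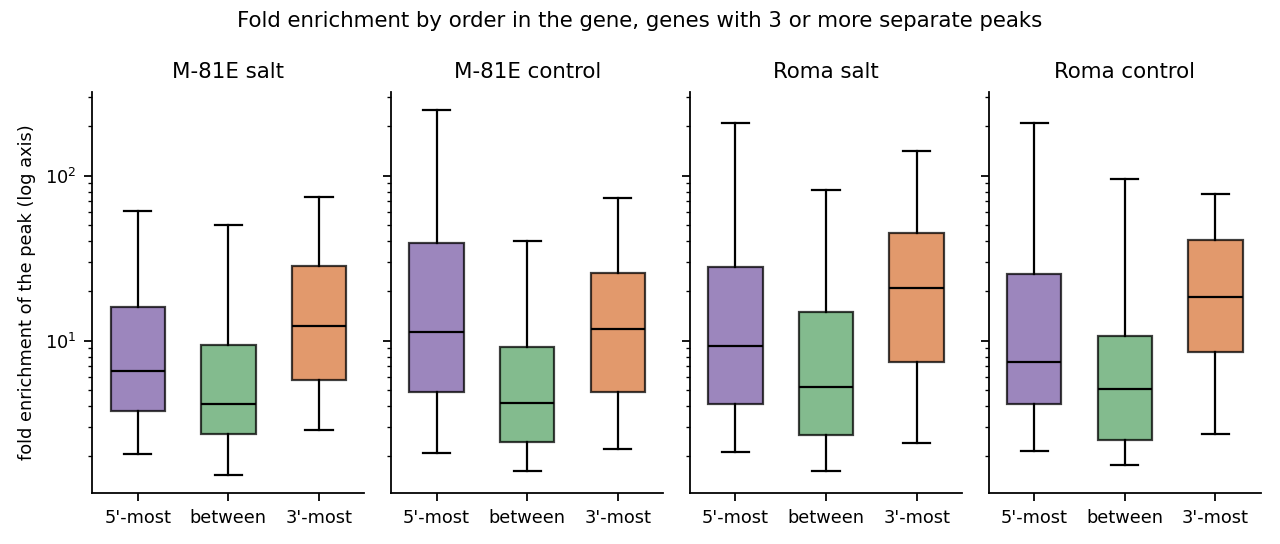
Fold enrichment of separate peaks (log axis) in genes with 3 or more, by order along the transcript, in the 4 lists (boxes: quartiles and median, whiskers: the 5th to 95th percentile). In each list the peaks between the ends have the lowest median, 4.07 to 5.22.

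The strongest separate peak was the one nearest the 3' end in 95 of 186 genes in M-81E salt (51.1%, 95% interval 43.7 to 58.5%) and in 108 of 257 in M-81E control (42.0%, 35.9 to 48.3%). It was so in 124 of 253 genes in Roma salt (49.0%, 42.7 to 55.4%) and in 21 of 50 in Roma control (42.0%, 28.2 to 56.8%). It was the one nearest the 5' end in 32.3% of genes in M-81E salt and 41.6% in M-81E control, and in 31.2% in Roma salt and 36% in Roma control. The intervals of salt and control overlapped in both strains. On the rows as listed, the 3'-end share by highest fold was 47.4% in M-81E salt and 39.3% in M-81E control. In Roma it was 44.2% in salt and 34.2% in control. By lowest p value these shares were 32.8, 41.2, 36.2 and 32.9%. The order of salt and control in M-81E was thus reversed, so this share depends on the measure of height.

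Neighbouring separate peaks lay about a kilobase apart. Between their centres the median distance in the genome, introns included, was 1205 bp in M-81E salt, 1086 bp in M-81E control, 1120 bp in Roma salt and 1268 bp in Roma control. The middle 50% of distances ran from 625.5 to 2406 bp in M-81E salt, 612.8 to 2174 bp in M-81E control, 642.9 to 2203 bp in Roma salt and 553.0 to 2190 bp in Roma control. The smallest distances were 178.0, 147.0, 119.5 and 149.0 bp, and the longest were 16380, 14720, 21110 and 18900 bp. From the first to the last peak a gene spanned a median of 4112, 3695, 3935 and 4006 bp. On the rows as listed, overlapping rows included, the median distances were shorter, at 900.8, 867.0, 858.8 and 682.0 bp.

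The genes were somewhat longer and had higher FPKM than genes with fewer rows. Their median length, introns included, was 5500 bp in M-81E salt, against 4585 bp for genes with exactly 2 rows and 4448 bp for genes with 1 row. In M-81E control the medians were 4715, 4439 and 4420 bp, in Roma salt 5462, 4502 and 4440 bp, and in Roma control 5422, 4250 and 4620 bp. Median FPKM, as the mean of the 2 libraries of the list's own group, was 20.8 for genes with 3 or more rows, 17.6 with 2 and 10.9 with 1 in M-81E salt. The values were 25.8, 18.2 and 12.04 in M-81E control, 19.8, 16.9 and 11.2 in Roma salt, and 35.1, 31.8 and 19.8 in Roma control. Genes whose rows formed fewer than 3 separate peaks had lower medians, 5.15, 6.47, 6.87 and 10.9, against 29.4, 31.3, 24.96 and 42.7 for those with 3 or more separate peaks. FPKM counts fragments of the same libraries or of their partners, so it is not independent of how many peaks could be called.

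Of the 552 genes, 41 had 3 or more rows in all 4 lists, 97 in 3 lists, 96 in 2 and 318 in 1. The 41 genes were 16.6% of the genes of the M-81E salt list, 13.1% of M-81E control, 12.6% of Roma salt and 51.9% of Roma control, the shortest list. A further 79 genes met the rule in every list but Roma control, and 19 in both salt lists and neither control list. By separate peaks, 23 of 444 genes had 3 or more in all 4 lists and 264 in only 1. Of these 23 genes, 19 had at least 3 peaks that overlapped a peak of every other list, and in 13 the strongest peak lay in the same place throughout.

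The gene with the most separate peaks in all 4 lists was SORBI_3010G169600 (chromosome 10, 50015617 to 50027342, minus strand; the labels name no build), annotated to calcium binding, regulation of transcription and sodium ion homeostasis. It had 6 separate peaks in M-81E salt, 5 in M-81E control, 5 in Roma salt and 6 in Roma control. In M-81E salt its tallest peak, in exon 6 of 22, had a fold enrichment of 30.1, and the other peaks had folds of 3.04 to 8.05. The exon 6 peak led in M-81E control at 49.8 and in Roma salt at 38.0. In Roma control the 3' UTR peak led at 17.8, with the exon 6 peak at 16.0. FPKM of this gene was 24.04 and 27.61 in M-81E salt, 23.86 and 33.29 in M-81E control, 33.93 and 34.61 in Roma salt, and 35.5 and 34.27 in Roma control, and salt and control libraries overlapped in both strains.

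SORBI_3003G113800 (chromosome 3, 10257896 to 10262483, plus strand) held the tallest peak of any of the genes in every list. It is annotated as a serine/threonine protein kinase with the response to salt stress and hyperosmotic salinity among its terms. Its peak at the very 5' end had a fold enrichment of 2320 in M-81E salt, 2910 in M-81E control, 4480 in Roma salt and 3820 in Roma control. A second peak, which began 1374 bp into the gene in M-81E salt, had folds of 2.33, 1.90, 2.81 and 2.21, and a 3' UTR peak had 15.9, 59.7, 49.4 and 60.5. The 3 peaks of this gene recurred in all lists with the same order of height. The second tallest peak differed between lists: it belonged to SORBI_3002G068300, a SNARE protein of vesicle fusion, in M-81E salt, with a fold of 456 in the 3' UTR. SORBI_3003G241800, with no annotated function, was among the 3 genes with the tallest peaks in all 4 lists, with a 5' UTR peak of 390 in M-81E salt, 1900 in M-81E control, 1350 in Roma salt and 976 in Roma control. SORBI_3001G488500, annotated only to the nucleus, had its peak of 1400 in Roma salt beside 2 low ones of 2.11 and 5.84, whereas the other lists held only the tall peak.

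SORBI_3001G107900 (chromosome 1, 8351880 to 8364841, minus strand), annotated to RNA binding and mRNA processing, shows that a count can change without a place being gained. It had 5 peaks in M-81E salt, 4 in M-81E control, 4 in Roma salt and 3 in Roma control. A region from 7700 to 11679 bp of the gene was listed in M-81E control as 1 peak with a fold enrichment of 122. In M-81E salt the region was listed as 2 neighbouring peaks, with folds of 52.1 and 3.50. SORBI_3002G388500, annotated to snRNP assembly and splicing, had a first peak that spans an intron and had folds of 191 in M-81E salt, 1240 in M-81E control, 967 in Roma salt and 924 in Roma control. Its peaks within later exons had folds of 3.0 to 5.65 over the 4 lists. SORBI_3003G163200, annotated as the DNA-dependent ATPase of a NURF chromatin remodelling complex, had 4 peaks in M-81E salt, M-81E control and Roma salt and 5 in Roma control.

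**Figure D4:**
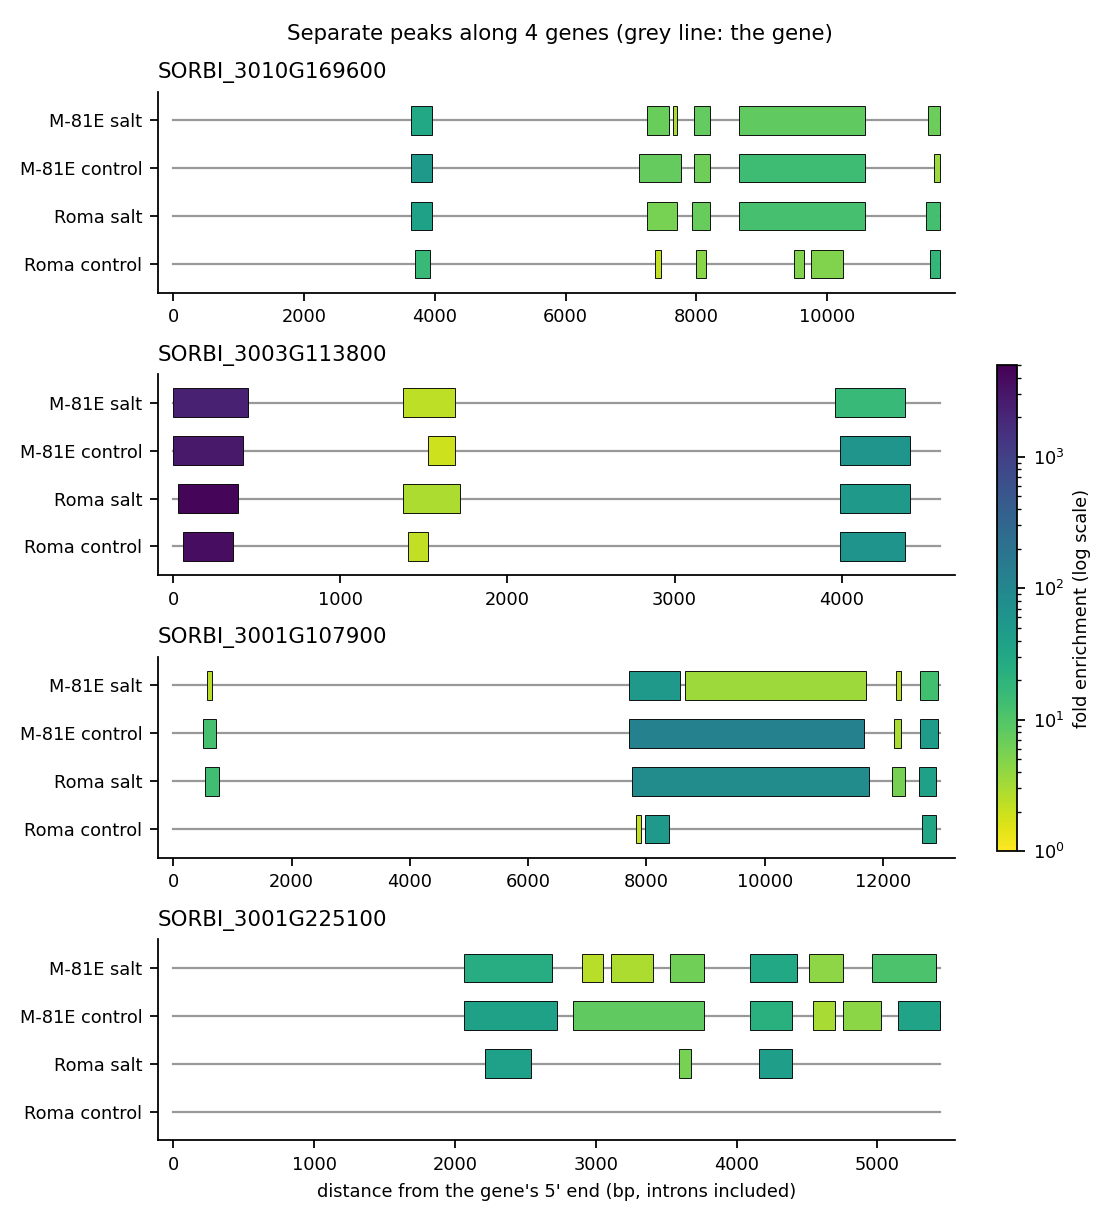
Separate peaks along 4 genes, as distance from the 5' end of the gene (bp, introns included), 1 line per list and coloured by fold enrichment (log scale). SORBI_3010G169600 has 6, 5, 5 and 6 peaks, SORBI_3003G113800 has 3 in each list with the tallest at the 5' end, SORBI_3001G107900 has 5, 4, 4 and 3, and SORBI_3001G225100 has 7, 6, 3 and none.

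Among the 23 genes with 3 or more separate peaks in all lists, 3 are described that were chosen with their values known, the first and second for an annotated function and the third for its low FPKM. SORBI_3003G036400, annotated to the translation initiation factor eIF3, had 3 peaks in each list, and its exon 8 peak led with folds of 47.6 in M-81E salt, 99.4 in M-81E control, 65.1 in Roma salt and 75.8 in Roma control. SORBI_3005G216300, annotated to the splicing factor U2AF, which recognises the end of introns, had 3 peaks in each list. Its middle peak was the lowest in each, with folds of 5.40, 3.22, 4.18 and 4.32. SORBI_3010G175400 had 3 peaks at the same places in all lists although its FPKM was 0 to 0.278 in the 8 libraries, and no function is annotated for it in the deposited table. Its tallest peak had folds of 17.8 in M-81E salt, 22.6 in M-81E control, 76.0 in Roma salt and 26.3 in Roma control.

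Other genes with many peaks were listed with them in some lists only. SORBI_3001G225100 (chromosome 1, 21529362 to 21534805, minus strand), with no annotated function, had 7 separate peaks in M-81E salt, 6 in M-81E control and 3 in Roma salt, all in the 3' UTR, and none in Roma control. Its FPKM was 3.958 and 0 in Roma salt and 0 and 2.466 in Roma control, and 17.38 and 17.02 in M-81E salt and 30.84 and 31.47 in M-81E control. SORBI_3006G214300, also without annotation, had 6 peaks in M-81E salt, 7 in M-81E control, 5 in Roma salt and none in Roma control. Its FPKM was 27.91 and 32.77 in Roma salt and 24.26 and 25.18 in Roma control. SORBI_3008G058200, annotated as a pectate lyase, an enzyme that cuts pectin of the cell wall, had 7 peaks in Roma salt and 1 in each other list, at an FPKM of 1.07 to 4.648 throughout. SORBI_3010G264100, without annotation, had 1 peak in M-81E salt, 2 in M-81E control, 6 in Roma salt and none in Roma control, at an FPKM of 4.526 to 8.905. SORBI_3006G009000, annotated to ubiquitin transfer, had 5 peaks in both Roma lists and 2 in both M-81E lists within a gene of 1933 bp. Its FPKM was 2.855 and 6.606 in Roma salt and 152.8 and 154.0 in Roma control, and 550.8 and 7.821 in M-81E salt and 15.94 and 2.322 in M-81E control, so the replicates of M-81E salt lay far apart.

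Whether the peaks of 1 treatment were also listed in the other was counted for each strain by an overlap of 1 bp. Of the 606 separate peaks of M-81E salt, 14.9% had no overlapping peak in M-81E control. Of the 824 peaks of M-81E control, 27.7% had none in M-81E salt, and these were 37.5% of 5' UTR peaks, 37.7% of exon peaks and 7.94% of 3' UTR peaks. In Roma the direction was the other way. Of the 817 peaks of Roma salt, 59.4% had no overlapping peak in Roma control, a list with 5949 rows against 12080 for salt. These were 67.1% of 5' UTR, 65.9% of exon and 48.2% of 3' UTR peaks. Of the 161 peaks of Roma control, 4.35% had none in Roma salt. The peaks without a partner had lower medians: their fold enrichment was 3.0 against 8.08 for the others in M-81E salt, 4.20 against 9.91 in M-81E control, 5.84 against 24.7 in Roma salt and 1.91 against 9.50 in Roma control. Tall peaks were among them too. Of the strongest peaks of each gene, 10 of 186 in M-81E salt had no partner, 47 of 257 in M-81E control, 94 of 253 in Roma salt and 0 of 50 in Roma control. Those without a partner had median folds of 6.81 in M-81E salt, 19.9 in M-81E control and 26.8 in Roma salt, against 26.3, 30.2 and 50.4 for those with one. With 1 list per treatment, such a difference has no replicate check, and the length of the lists moves with it.

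Most genes that met the rule in only 1 treatment kept some peaks in the other. Of the 186 genes with 3 or more separate peaks in M-81E salt, 111 had 3 or more in M-81E control, 63 had 2, 11 had 1 and 1 had none. Of the 257 genes of M-81E control, the counts in M-81E salt were 111, 97, 46 and 3. Of the 253 genes of Roma salt, 39 had 3 or more in Roma control, 68 had 2, 81 had 1 and 65 had none. A longer peak in the other list could take the place of several. This was so for 33 of the 92 genes that had more peaks in M-81E salt than in M-81E control and some in both, and for 17 of the 159 genes with more in M-81E control. It was so for 6 of the 159 genes with more in Roma salt than in Roma control, and for 10 of the 15 genes with more in Roma control.

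Of 10 groups of annotated functions that were counted, genes of transcription were the most numerous. Of the 551 genes found in the expression table, 78 (14.2%) were annotated to transcription factor activity or DNA binding, against 8.06% of the 10969 genes with any peak. RNA binding or splicing was annotated for 47 genes (8.53% against 5.54%), and chromatin or histone functions for 22 (3.99% against 2.64%). Terms for the response to salt, water or abscisic acid were found for 30 (5.45% against 4.21%), and protein kinases were 28 (5.08% against 4.93%). Translation or ribosome terms (19 genes, 3.45% against 5.19%), ubiquitin ligase or proteasome terms (18, 3.27% against 4.996%) and transporter terms (16, 2.90% against 4.56%) took smaller shares than among all genes with a peak. Cell wall terms were found for 19 genes (3.45% against 3.11%). Neither of the 2 genes annotated to mRNA methylation was among them. These shares are descriptions, and differences in length and FPKM between the groups were not taken into account.

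Few of the genes changed in FPKM with salt. In M-81E, 3 of the 522 genes, of 552, that passed the filter of a mean FPKM of 1 were called by limma at an adjusted p under 0.05, 1 higher and 2 lower in salt, against a background of 0.491% of the 16280 genes tested (34 higher and 46 lower). In Roma, 4 of 522 were called, 3 higher and 1 lower, against 0.473% (54 higher and 23 lower). These shares are near the background. In whole roots, fewer cells of a type and less RNA per cell cannot be told apart. The median log2 difference of salt minus control, on the scale of log2(FPKM + 1), was -0.003 for these genes and -0.051 for all genes tested in M-81E, and 0.038 and -0.029 in Roma. When 1 library was left out its group held 1 sample, which was taken to vary like the other groups, so such fits are a weak check. The counts in both strains rest on single libraries, and the counts over all genes tested moved in these fits too. In M-81E the largest count came without M-81E control replicate 1, for these genes and for all genes tested. That fit left M-81E control replicate 2, which stood apart in the principal component analysis, as the only library of its group.

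SORBI_3007G023700, annotated to isomerase activity in the nucleus, was called in both strains. It had an FPKM of 34.18 and 30.36 in M-81E salt against 106.6 and 120.5 in M-81E control, and of 18.17 and 16.8 in Roma salt against 83.57 and 116.0 in Roma control. Both salt libraries lay below both control libraries in each strain. The log2 difference was -1.78 (SE 0.222, adjusted p = 0.0424, limma) in M-81E and -2.43 (SE 0.222, adjusted p = 0.0141) in Roma. The call in M-81E was kept only without M-81E control replicate 1, and adjusted p rose to 0.164 without M-81E salt replicate 1. In Roma it was lost without Roma control replicate 2 (0.0888) or Roma salt replicates 1 (0.0911) or 2 (0.118). It had 2 separate peaks in M-81E salt and 3 in M-81E control, led in control by a 5' UTR peak with a fold enrichment of 546. Within M-81E it thus had 3 separate peaks only in control, where its FPKM was higher, so its M-81E p-value is no independent support.

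The largest of these called differences was that of SORBI_3001G132400 (chromosome 1, 10409306 to 10419207, minus strand), annotated as a plasma membrane proton-exporting ATPase, the pump that energises ion transport across the root cell membrane. It had an FPKM of 94.9 and 101.4 in Roma salt against 7.949 and 8.424 in Roma control, a log2 difference of 3.43 (SE 0.226, adjusted p = 0.00497, limma). In M-81E it had 17.18 and 22.29 in salt against 5.305 and 7.293 in control (log2 1.51, adjusted p = 0.0776). The difference between the strains' responses was 1.92 (SE 0.320, adjusted p = 0.152). With 1 library left out, the log2 difference in Roma was 3.38 to 3.48. Its 4 peaks were listed in Roma salt alone, with folds of 1.33 to 4.48, and no row of the gene was in the other lists. The gene thus met the rule only through the group where its FPKM was highest. That it differed is set in part by how it was chosen, and its p-values are no independent support.

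SORBI_3002G418900, with no annotated function, was higher in M-81E salt, at 105.1 and 73.81, than in M-81E control, at 13.11 and 6.221 (log2 3.14, SE 0.362, adjusted p = 0.0346, limma). In Roma its FPKM was 78.86 and 70.61 in salt and 42.16 and 50.93 in control (adjusted p = 0.559). SORBI_3001G208300, also without annotation, was lower in M-81E salt, at 33.93 and 31.6, than in M-81E control, at 85.39 and 99.24 (log2 -1.46, SE 0.176, adjusted p = 0.0388). Both calls were lost in the 6 fits that left out an M-81E salt library or a Roma library, where adjusted p was up to 0.172 for SORBI_3002G418900 and 0.140 for SORBI_3001G208300. The gene higher in salt had 3 peaks in M-81E salt and 4 in M-81E control, and the gene lower in salt had 1 and 3. Within M-81E, SORBI_3001G208300 thus had 3 peaks only in control, where its FPKM was higher, so its p-value is no independent support.

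In Roma, SORBI_3003G323500, annotated to protein-disulfide reduction and pollen tube growth, had an FPKM of 12.76 and 21.79 in salt against 1.229 and 1.351 in control (log2 2.95, SE 0.320, adjusted p = 0.0262, limma). SORBI_3006G204300, annotated as a sequence-specific transcription factor, had 19.59 and 20.21 in salt against 4.168 and 3.887 in control (log2 2.06, SE 0.267, adjusted p = 0.0484). Both had 3 rows in the Roma salt list that formed 2 separate peaks. The rule counted these rows in the group where both genes were higher, so their p-values are no independent support. The call of SORBI_3003G323500 was kept in 3 of 8 fits that left out a library, those without an M-81E control library or Roma salt replicate 1, and adjusted p reached 0.156 in the others. That of SORBI_3006G204300 was kept only in the 2 fits without an M-81E control library, and reached 0.265.

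**Figure D5:**
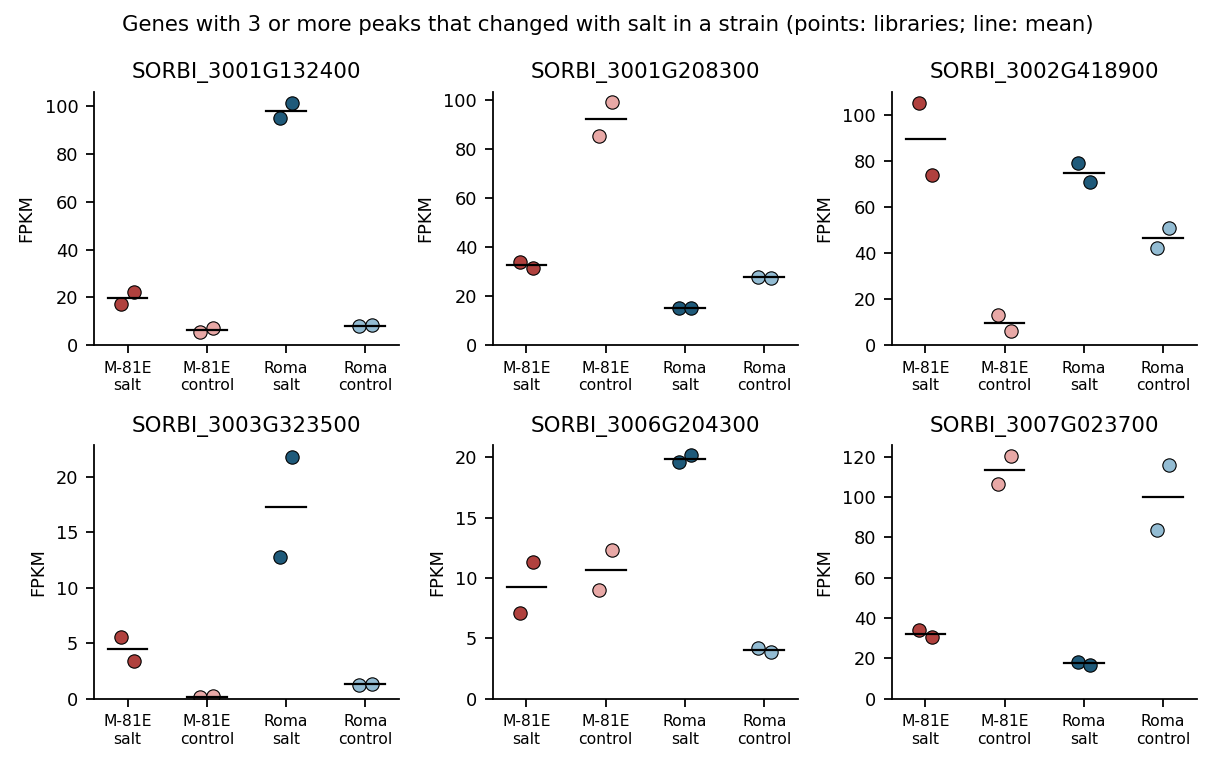
FPKM of the 6 genes with 3 or more rows that were called for salt in a strain (points: 2 libraries per group, line: their mean), with salt left of control. SORBI_3001G132400 is at 94.9 and 101.4 in Roma salt and at 22.29 or less in all other libraries, and SORBI_3007G023700 is lower in salt in both strains.

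No gene was called by limma for a difference between the strains in their response to salt (0 of 522, with 32 at an unadjusted p under 0.05), against 0.178% of all genes tested. This result rests on single libraries. Some of these genes were called without M-81E control replicate 1 or 2 or without M-81E salt replicate 2. The count over all genes tested rose in the same fits.

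Between strains more genes differed. In control, 62 of 522 were called, 27 higher and 35 lower in Roma than in M-81E, against a background of 12.1% of genes tested, of which 1359 were higher and 612 lower. In salt, 49 of 522 were called, 23 higher and 26 lower, against 8.42%, of which 977 were higher and 393 lower. The total shares are again near the background, but the directions are not divided alike: among all genes called most were higher in Roma, and among these genes slightly more were lower. The difference in direction was not tested. The genes were chosen by numbers of peaks, which are not independent of FPKM, from lists of unequal length. In control 313 genes met the rule in M-81E and 79 in Roma, and in salt 247 and 326. How far the rule set the directions is not known, so they cannot be read as a trait of these genes. Median log2 differences of Roma minus M-81E were 0.105 for these genes and 0.299 for all genes in control, and 0.117 and 0.286 in salt. Both counts rest on single libraries. They rose when either library of M-81E control was left out and fell without any other library. The counts over all genes tested rose and fell in the same fits.

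Of the genes with the largest strain differences, SORBI_3004G230300, SORBI_3005G019400 and SORBI_3007G169500 met the rule, and passed the filter on FPKM, through Roma alone. That they differed between strains is therefore set in part by how they were chosen, and their p-values are no independent support. SORBI_3004G230300, annotated to DNA helicase activity and telomere maintenance, had an FPKM of 10.96 and 12.68 in Roma salt and 6.85 and 9.108 in Roma control, against 0.01219 and 0.00765 in M-81E control. In M-81E salt, both libraries list it at 0. It passed in control (adjusted p = 0.00162, limma) and in salt (0.00119). It had 3 peaks in Roma salt, 2 in Roma control and none in either M-81E list. SORBI_3005G019400, annotated to defence and ADP binding, had 11.92 and 11.99 in Roma salt and 10.64 and 10.21 in Roma control, against 0.266 and 0.06965 in M-81E salt and 0.1842 and 0.4542 in M-81E control (log2 3.48 in salt and 3.12 in control, adjusted p = 0.00126 and 0.00155). With M-81E near 0, these log2 values are set by the pseudocount, and with 0.1 in place of 1 they were 5.597 in salt and 4.729 in control. Its 3 peaks were in Roma salt, and the other lists held none.

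SORBI_3001G352400, annotated to regulation of transcription and rhythmic processes, was lower in Roma. Its FPKM was 20.24 and 22.85 in Roma salt against 161.4 and 179.4 in M-81E salt (log2 -2.93, SE 0.211, adjusted p = 0.00202, limma), and 21.76 and 23.18 in Roma control against 160.6 and 214.5 in M-81E control. It had 1 peak in Roma salt and 1 in Roma control, both in the 3' UTR, against 4 in M-81E salt and 3 in M-81E control. It thus had 3 or more separate peaks only in the strain where its FPKM was higher. That it differed may be set in part by how it was chosen, and its p-value is no independent support. SORBI_3007G169500, annotated to the large ribosomal subunit, had 12.62 and 12.11 in Roma salt against 1.629 and 0.4067 in M-81E salt (log2 2.80, adjusted p = 0.00723), a call lost without Roma salt replicate 1 (0.0639) or 2 (0.0595). In control it had 13.31 and 11.85 in Roma against 0.4815 and 0.652 in M-81E (log2 3.12, adjusted p = 0.00479). With 1 library left out, the log2 difference of SORBI_3001G352400 in salt was -3.01 to -2.844. For SORBI_3004G230300 it was 2.959 to 3.323 in control and 3.58 to 3.774 in salt. For SORBI_3005G019400 it was 2.974 to 3.27 in control and 3.355 to 3.598 in salt. These fits share the choice of genes, so they add no independent support.

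Further named strain differences were called in control. The lists in which SORBI_3006G261800 and SORBI_3004G268700 met the rule are not given here. SORBI_3001G225100 met it in M-81E control and had no peak in Roma control. The p-values of these genes are therefore not read as independent support. SORBI_3006G261800, annotated to nucleic acid and metal binding, had an FPKM of 2.921 and 2.451 in Roma control against 55.74 and 59.03 in M-81E control (log2 -3.99, adjusted p = 0.00624, limma), lost without Roma control replicate 1 (0.0508) or 2 (0.0546). SORBI_3004G268700, annotated to brassinosteroid and abscisic acid metabolism, had 163.6 and 145.5 in Roma control against 18.33 and 15.26 in M-81E control (log2 3.13, adjusted p = 0.0241). Its call was kept in the 3 fits without M-81E control replicate 1 or an M-81E salt library, and adjusted p was up to 0.147 in the others. SORBI_3001G225100 had 0 and 2.466 in Roma control against 30.84 and 31.47 in M-81E control (adjusted p = 0.0335), kept only in the 2 fits without a Roma salt library and up to 0.176 in the others.

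In salt, SORBI_3001G432800, annotated as phosphoenolpyruvate carboxykinase, an enzyme of gluconeogenesis, had an FPKM of 14.93 and 22.1 in Roma against 154.6 and 118.9 in M-81E (log2 -2.83, adjusted p = 0.0181, limma). SORBI_3001G025300, annotated to hydrolase activity, had 7.317 and 8.338 in Roma salt against 180.5 and 133.9 in M-81E salt (log2 -4.15, adjusted p = 0.0429). The lists in which these genes met the rule are not given here, so their p-values are not read as independent support. Both calls were kept only in the 2 fits without an M-81E control library, and adjusted p was up to 0.124 for SORBI_3001G432800 and 0.209 for SORBI_3001G025300 in the others.

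The 3 genes of highest mean FPKM differed in how far their libraries lay apart. ENSRNA049463750, a gene with 1 exon and no informative annotation, had FPKM values of 0.000016 and 6996 in M-81E salt, 2292 and 598 in M-81E control, 2406 and 1609 in Roma salt and 3909 and 4351 in Roma control. It had 3 peaks in M-81E salt and 2 in each other list. SORBI_3007G088000, annotated to methionine synthase reductase activity, had 722.2 and 962.4 in M-81E salt, 1173 and 1212 in M-81E control, 505.7 and 617.9 in Roma salt, and 538.2 and 495.8 in Roma control. Its 3' UTR peak was the tallest of its peaks in every list. SORBI_3001G154100 had 615.5 to 1024 over the 8 libraries. It had a 5' UTR and a 3' UTR peak in each list, and the 5' UTR peak led in both M-81E lists and in Roma salt while the 3' UTR peak led in Roma control.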

How the data were processed

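Per the labels, poly(A) RNA of roots was fragmented and sequenced with and without m6A enrichment. Tools named in the submitters' processing notes, without roles, are HISAT2, StringTie, ChIPseeker, edgeR, cutadapt and FastQC. No source used here gives the peak caller, pooling of replicates, genome build or annotation. Per the file headers, the deposited peak lists hold the authors' fold enrichment (a ratio), a p-value and log scores, and the deposited expression table holds FPKM.

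Rows were counted per gene and list (3 or more), and overlapping rows (1 bp) were joined, keeping the tallest. Expression was compared with limma 3.58.1 (R 4.3.3) on log2(FPKM + 1) over genes with a mean FPKM of 1, 4 groups of 2 libraries, eBayes with trend, Benjamini-Hochberg over all 16280 genes. The fit was tested on simulated data. P-values measure the spread between samples the labels call biological replicates. Python 3.11.15, pandas 2.3.3, numpy 2.4.6, scipy 1.17.1 and matplotlib 3.10.9 were used. The members and lists were chosen with earlier results of these data known. Genes named were up to 15 in all 4 lists by rows, 5 per list by rows, 3 per list by fold, 3 by FPKM and up to 6 called per contrast, and 3 others are marked as chosen with their values known.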

Additional observations from a re-analysis of the deposited data

How the results depend on the processing

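Requiring a fold enrichment of 5 left 95, 114, 141 and 36 genes with 3 or more rows in M-81E salt, M-81E control, Roma salt and Roma control, and 16 in all 4 lists. Requiring 4 rows left 60, 74, 84 and 17, and 8 in all. Joining overlaps left 50 in Roma control, also when only shared exon blocks joined rows (chosen after seeing the data), and 23 in all lists. A false discovery rate of 0.001 left the counts of genes with 3 or more rows exactly as they were, so this cut-off is no check of them. The share of genes whose strongest row was nearest the 3' end was 47.4% in M-81E salt, 39.3% in M-81E control, 44.2% in Roma salt and 34.2% in Roma control as listed. With a fold of 5 it was 39.0, 30.7 and 34.0% in the first 3 of these lists, and with 4 rows 35.0, 31.1 and 29.8%. By p value it was 32.8% in M-81E salt, 41.2% in M-81E control, 36.2% in Roma salt and 32.9% in Roma control. By annotated class, the strongest row lay in the 3' UTR in 60.3% of genes in M-81E salt, 59.2% in Roma salt and 53.2% in Roma control. Median spacing was 619.8, 695.5 and 471.0 bp with a fold of 5 in M-81E salt, Roma salt and Roma control. With 4 rows it was 704.5, 678.5, 535.0 and 358.5 bp, joined it was 1205, 1086, 1120 and 1268 bp (the same by blocks), and between edges 504.5, 462.0, 477.0 and 358.0 bp.

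Without a filter on FPKM 1 gene was called for salt in M-81E. Leaving out 1 library gave 0 to 130 calls for salt in M-81E, 0 to 15 in Roma, 9 to 147 for strain in control, 9 to 128 in salt, and 0 to 48 for the interaction. With the replicate number as a block, calls were 0, 2, 43, 32 and 0. The numbers do not pair the samples, as deviations of libraries with the same number had correlations of -0.038 to 0.038. Among 19 named calls no log2 difference changed sign, and 61 of 76 kept their call under other settings and 91 of 152 without a library. Quantile scaling ended the M-81E salt calls of SORBI_3001G208300 (adjusted p = 0.0694, limma) and SORBI_3007G023700 (0.0648) and the strain call of SORBI_3001G025300 in salt (0.0501). No filter ended this call (0.0582), those of SORBI_3002G418900 (0.0536) and SORBI_3007G023700 (0.0566) in M-81E and that of SORBI_3006G204300 in Roma (0.0529). The block ended those of SORBI_3001G208300 (0.0943), SORBI_3002G418900 (0.0658) and SORBI_3007G023700 (0.0969) in M-81E, SORBI_3003G323500 (0.0792) and SORBI_3006G204300 (0.0839) in Roma, and SORBI_3001G225100 between strains (0.0606). A pseudocount of 0.1 ended those of SORBI_3001G225100 (0.114) and SORBI_3006G204300 (0.0577). The causes were not tested. The planned motif count was not run, as no genome was used here.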
